A study of Mus musculus with 21 samples.

Results

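The 10 genes described here serve transport and differentiation in the surface colonocyte, and were measured in the colon of germ-free (GF) mice: Slc26a3, Slc9a3, Slc5a8, Slc16a1, Car1, Car4, Aqp8, Scnn1b, Guca2a and Krt20. They were chosen by name as genes of the absorptive epithelium and are 10 of 27499 genes with a symbol on the arrays used at day 0 and 10 of 24191 on the arrays used at day 7. Every probe of a member was read, and the probe with the highest mean signal over the arrays of a day stood for the gene. The samples were total colon tissue RNA of male C57BL/6J mice, either GF Card9-/- or GF WT, taken at day 0 before dextran sulfate sodium (DSS, a polymer that injures the colonic epithelium when drunk) or at day 7 of 2% DSS. Card9 codes for a signalling adaptor of innate immune cells. At day 0 there were 7 arrays labelled GF Card9-/- and 6 labelled GF WT, and at day 7 there were 4 of each, 21 in all. All mice of both genotypes were germ-free and carried no microbiota. The deletion is constitutive and total tissue was used, so that the epithelium was measured together with muscle, nerve, fat and immune cells, and a lower signal from fewer colonocytes and one from less RNA per colonocyte cannot be told apart. Each array is 1 labelled sample, and as the labels do not tie samples to mice, the p-values measure the spread between these samples, part of which may be technical.

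Colonocytes leave the crypt base, stop dividing and mature as they move to the surface, where they take up salt, water and the short-chain fatty acids that bacteria make from fibre. Sodium enters in exchange for protons and chloride enters in exchange for bicarbonate, with carbonic anhydrases supplying both ions, and water follows the salt. These genes are not used evenly along the gut: some carriers are strongest in the proximal colon, while the epithelial sodium channel belongs to the distal colon. In a germ-free colon the supply of short-chain fatty acids is small, since few are made without bacteria.

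The regions just before the start sites of Slc9a3, Aqp8, Guca2a and Krt20, members that the results below turn on, are printed here so that the genes can be compared at the level of sequence. Of the 10 members, 9 had an entry in the RefSeq promoter table (GRCm38.p6), and Car1 had none. The 250 bases before the start are written 5' to 3' on the strand of the gene, and capitals mark matches to TATAAA (the TATA box) or to GGGCGG (the GC box, searched on both strands, so that it can read CCGCCC). They are the Slc9a3 region at chr13:74121163-74121412 (+ strand), the Aqp8 region at chr7:123462044-123462293 (+ strand), the Guca2a region at chr4:119637482-119637731 (+ strand) and the Krt20 region at chr11:99438154-99438403 (- strand).
Slc9a3: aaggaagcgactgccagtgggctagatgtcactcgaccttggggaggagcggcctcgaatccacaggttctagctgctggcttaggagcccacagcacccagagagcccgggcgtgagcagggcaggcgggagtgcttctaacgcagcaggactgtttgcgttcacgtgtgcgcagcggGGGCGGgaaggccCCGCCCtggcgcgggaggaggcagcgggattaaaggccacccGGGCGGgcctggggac
Aqp8: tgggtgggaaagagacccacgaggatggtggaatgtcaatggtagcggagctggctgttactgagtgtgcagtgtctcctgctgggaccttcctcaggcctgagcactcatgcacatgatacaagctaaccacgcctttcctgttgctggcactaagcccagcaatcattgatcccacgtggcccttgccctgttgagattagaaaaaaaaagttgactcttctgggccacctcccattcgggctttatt
Guca2a: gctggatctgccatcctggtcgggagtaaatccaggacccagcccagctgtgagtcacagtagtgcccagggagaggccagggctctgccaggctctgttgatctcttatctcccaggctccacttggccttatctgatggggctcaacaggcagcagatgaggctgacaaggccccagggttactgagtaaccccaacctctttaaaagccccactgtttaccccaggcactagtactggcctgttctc
Krt20: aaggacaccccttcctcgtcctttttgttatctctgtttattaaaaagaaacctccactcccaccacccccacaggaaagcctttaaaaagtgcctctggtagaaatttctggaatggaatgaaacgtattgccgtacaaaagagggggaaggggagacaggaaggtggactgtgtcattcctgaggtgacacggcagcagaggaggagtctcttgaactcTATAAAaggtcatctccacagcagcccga
The Slc9a3 region held 3 GC boxes, at 71 and 16 bases before the start on the strand of the gene and at 58 bases on the opposite strand, and 67.6% of its bases were G or C, against a median of 52.4% over all 32851 promoters of the table. Krt20 carried a TATA box 29 bases before its start, and Slc26a3 carried one at 30 bases. The TATA box was found in 12.4% of all promoters and in 2 of the 9 members matched, and the GC box in 32.7% of all promoters and in 4 of the 9 (Slc9a3, Slc5a8, Slc16a1 and Scnn1b). Of the other 2 motifs searched on both strands, CATAAA (a core of Cdx sites) lay in 10.8% of all promoters and CAAAGTCC (a core of Hnf4 sites) in 1.2%, and no member matched either. Neither Guca2a nor Aqp8 held any of the 4 motifs in this window.

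Several facts about the arrays bear on every result. Between 54.5% and 64.9% of spots were well above background on the day 0 arrays and between 42.2% and 57.1% on the day 7 arrays, and no spot was saturated. The days used different array designs, so that day and design cannot be told apart and no level at day 7 was set against a level at day 0. Card9 itself went against the labels: at day 0 its probe exceeded background on all 7 arrays labelled GF Card9-/- (8.90 ± 0.20, SD, n = 7, normalized log2 signal) and on none of the 6 labelled GF WT (2.32 ± 0.01, SD, n = 6), a signal at least 21.5-fold higher under the knockout label (limma, Benjamini-Hochberg adjusted p = 2.92e-13; at least, because the GF WT arrays were set to the lowest signals measured above background). At day 7 all 4 arrays labelled GF Card9-/- held Card9 signal (7.93 to 8.57), as did the array labelled GF WT replicate 1 (7.85), while the other 3 labelled GF WT were at 2.38 to 2.41. Whether the probes lie within the deleted part is not given in the sources used here, but a signal missing in WT and present in the knockout is the reverse of what a deletion gives. Groups are therefore named by their labels throughout, and every direction is that of the labels, labelled GF Card9-/- minus labelled GF WT.

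Some arrays stood apart in genes that mark where along the gut, or from which organ, tissue came. At day 0 the array labelled GF WT replicate 6 had the lowest Hoxb13 (9.45, against 14.53 to 16.47 in the other 12), a homeobox gene of the most distal gut, and the highest Sis (12.72, against 5.44 to 8.22), the sucrase-isomaltase of the small intestinal brush border. At day 7 the array labelled GF WT replicate 5 had the highest Hoxd13 (11.08, against 3.95 to 7.48), another distal gene. The distal genes did not all follow it there: Hoxa13 was lowest in that array (9.13, against 9.69 to 10.73), and Hoxb13, at 15.63, lay within the range of the others (14.49 to 16.02). Pancreas markers (8 genes of digestive enzymes) had a mean of 17.54 in GF Card9-/- replicate 7 at day 0, against 5.19 to 6.73 on the other 12 arrays of that day. At day 7 it was 15.50 and 11.62 in GF Card9-/- replicates 6 and 2.1, against 4.70 to 6.59 on the other 6. Member differences are given below with and without these arrays where they moved most, and leaving out GF Card9-/- replicate 7 at day 0 turned the direction of no member.

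At day 0 none of the 10 members differed between the labels after correction (0 of 10 in limma at an adjusted p under 0.05, lowest adjusted p of a member 0.755). Over all 47410 probes tested, 0.0253% were called. Before correction 1 member, Slc16a1, had a p under 0.05, against 5.84% of all probes. No member had groups that did not overlap, against 0.458% of all probes. The member differences had a median of 0.08 (7 of 10 higher in the arrays labelled GF Card9-/-), and over all probes the median was 0.015, with 57% higher. Without GF WT replicate 6 the member median was 0.047, with 5 of 10 higher. Several lists of other cell types moved with the same contrast: all 8 pancreas markers (median difference 2.03), 5 of 5 mesothelium markers (0.91) and 7 of 7 T cell markers (0.21) were higher in the arrays labelled GF Card9-/-, and 0 of 8 macrophage (-0.54), 0 of 8 smooth muscle (-0.45), 0 of 8 enteric neuron and glia (-0.28) and 0 of 6 B and plasma cell markers (-0.17). The list means of both labels overlapped for each of these lists, none of the genes passed correction, and their part in the member differences was not tested.

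Both ion exchangers were well above background on every day 0 array. Slc26a3, the exchanger that takes up chloride and releases bicarbonate at the surface, ran from 14.83 through a median of 15.14 to 15.93 in arrays labelled GF Card9-/- and from 13.75 through 15.49 to 15.68 in arrays labelled GF WT. A single array set the low end: GF WT replicate 6, at 13.75, was 3.12-fold below the median of the other 12, which spanned 14.83 to 15.93. The difference was 0.07 (SE 0.307, 95% interval -0.60 to 0.74, adjusted p = 0.988, limma) with all arrays and -0.23 without that array. Its other 2 probes on this design followed it closely over the arrays (genotype-centred r = 0.94 and 0.98).

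Slc9a3, the sodium/proton exchanger NHE3 that drives electroneutral sodium uptake, had the second-largest difference of the members at day 0. It ran from 14.84 through 15.14 to 15.36 in arrays labelled GF Card9-/- and from 14.08 through 14.81 to 15.33 in arrays labelled GF WT. The labelled GF Card9-/- arrays were tightly grouped and the labelled GF WT arrays spread below them, with 3 of 6 (replicates 2, 4 and 6, at 14.22, 14.54 and 14.08) lower than every knockout-labelled array. The difference was 0.39 (SE 0.206, 95% interval -0.05 to 0.84, adjusted p = 0.912, limma), and 0.26 without GF WT replicate 6. The dimmer Slc9a3 probe gave 0.49 (SE 0.205, adjusted p = 0.787), also not past correction. Scnn1b, a subunit of the amiloride-sensitive sodium channel ENaC, was well above background on only 3 of 13 arrays with the probe of this design, and its range of 3.93 to 5.20 carries little information.

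The carriers of short-chain fatty acids varied least. Slc16a1, the proton-linked monocarboxylate carrier MCT1, ran from 13.19 through 13.28 to 13.51 in arrays labelled GF Card9-/- and from 12.90 through 13.08 to 13.41 in arrays labelled GF WT. Both groups lay within a 1.52-fold range and overlapped, and GF WT replicate 5 alone among the GF WT arrays, at 13.41, was above the GF Card9-/- median. The difference of 0.21 (SE 0.0834, 95% interval 0.03 to 0.39) had the lowest adjusted p of the members (0.755, limma). Slc5a8, the sodium-coupled monocarboxylate carrier SMCT1, spanned 11.41 to 12.24 and 11.41 to 12.34 in the 2 groups, with medians of 11.88 and 11.87. Its difference was -0.07 (SE 0.168, 95% interval -0.43 to 0.30, adjusted p = 0.971), and it was -0.17 without GF WT replicate 6 and turned to 0.02 without GF WT replicate 2.

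Aqp8 and Car1 had the widest ranges of the members at day 0. Aqp8, the water channel of surface colonocytes, ran from 15.47 through 16.31 to 17.05 in arrays labelled GF Card9-/- and from 9.56 through 16.43 to 17.12 in arrays labelled GF WT, a 189-fold range over the 13 arrays. Most of that range came from GF WT replicate 6, at 9.56, which was 116-fold below the median of the other 12 arrays (15.47 to 17.12). With that array the difference was 0.83 (SE 1.05, 95% interval -1.45 to 3.11, adjusted p = 0.921, limma), and without it the direction turned, to -0.34. Car1, a cytosolic carbonic anhydrase abundant in the colon, ran from 14.63 through 14.80 to 15.63 and from 14.45 through 14.81 to 17.94. Here the same array was the highest, at 17.94, 8.87-fold above the median of the others (14.45 to 15.65). The Car1 difference was -0.30 (SE 0.503, 95% interval -1.40 to 0.79, adjusted p = 0.945) with it and 0.21 without it, and the 2 Car1 probes had a correlation that rounds to 1 over the arrays. Car4, a carbonic anhydrase anchored to the outer face of the apical membrane, ran from 14.61 through 15.30 to 15.54 and from 13.87 through 15.30 to 15.52. GF WT replicate 6 was again the lowest, 2.74-fold below the median of the others, and the Car4 difference was 0.05 (SE 0.263, 95% interval -0.53 to 0.62) with it and -0.20 without it.

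Guca2a and Krt20 stayed within narrow ranges. Guca2a codes for guanylin, the peptide that acts on guanylate cyclase C to control salt and water secretion. It spanned 18.25 to 18.74 in arrays labelled GF Card9-/- (median 18.55) and 17.69 to 18.90 in arrays labelled GF WT (median 18.35), with a difference of 0.18 (SE 0.174, 95% interval -0.19 to 0.56, adjusted p = 0.912). Krt20, a keratin of fully differentiated surface cells, spanned 16.85 to 17.45 (median 17.03) and 16.32 to 17.78 (median 17.07), with a difference of 0.08 (SE 0.218, 95% interval -0.39 to 0.56, adjusted p = 0.976). For both genes GF WT replicate 6 was the highest of 13 arrays and GF WT replicate 2 the lowest. Without replicate 6 the differences were 0.29 for Guca2a and 0.23 for Krt20, and without replicate 2 they were 0.05 and, turned in direction, -0.07.

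**Figure D1:**
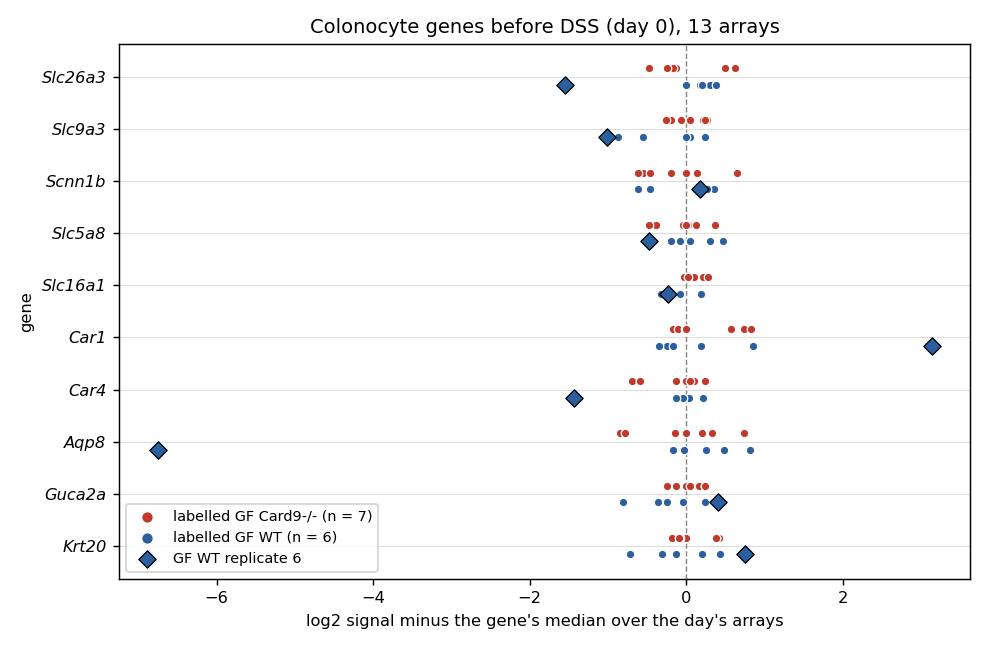
Normalized log2 signal of each of the 10 members minus the gene's median over the 13 day 0 arrays (horizontal axis), with 1 point per array, arrays labelled GF Card9-/- in red and GF WT in blue, and GF WT replicate 6 as a diamond. The groups overlap for every member, and Aqp8 at 9.56 and Car1 at 17.94 in GF WT replicate 6 lie far from the other arrays.

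At day 7 of DSS again none of the 10 members passed correction (0 of 10 in limma, lowest adjusted p of a member 0.913), and none had a p under 0.05. Over all 44643 probes tested 0% were called, 3.38% had an unadjusted p under 0.05, and 2.13% had groups that did not overlap, which no member did. The member differences had a median of 0.32 (8 of 10 higher in arrays labelled GF Card9-/-), against 0.001 over all probes (50.4% higher), and without GF WT replicate 5 the median was 0.137. The 95% intervals of all 10 included 0. The pancreas markers named above moved with the same contrast (median difference 5.43, 7 of 8 higher), as did the lists of adipocyte (median 1.23, 7 of 8 higher), small intestine (median 1.2, 7 of 9 higher) and T cell markers (median 0.75, 7 of 7 higher), and the smooth muscle list opposed it (8 genes, median -0.45, 1 of 8 higher). The enteroendocrine (median 0.37, 6 of 6 higher) and epithelial injury response lists (median 0.32, 9 of 10 higher) were higher as well. The list means of the labels did not overlap for 3 of the 25 lists. Pancreas markers were at 5.08 to 15.50 in arrays labelled GF Card9-/- and at 4.70 to 5.06 in arrays labelled GF WT. Neutrophil markers (8 of 8 higher, median 0.38, 3 of the 8 never well above background) were at 5.18 to 5.93 in arrays labelled GF Card9-/- and at 4.63 to 5 in arrays labelled GF WT. Crypt stem cell markers (3 of 8 higher, median -0.15) were at 7.85 to 7.89 and at 7.96 to 8.17. None of these genes passed correction, and the part of these lists in the member differences was not tested.

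Slc9a3 differed most between arrays at day 7. It was at 12.41, 14.80, 14.22 and 14.50 in arrays labelled GF Card9-/- (replicates 2, 2.1, 4 and 6) and at 11.43, 14.26, 7.11 and 14.28 in arrays labelled GF WT (replicates 1, 4, 5 and 6). A group of 5 arrays with both labels lay together between 14.22 and 14.80, and GF Card9-/- replicate 2, GF WT replicate 1 and GF WT replicate 5 lay below them, the last of these 143-fold below the median of the other 7. The difference of 2.21 was smaller than the spread between GF WT arrays (SE 1.6, 95% interval -1.52 to 5.95, adjusted p = 0.913, limma), and without GF WT replicate 5 it was 0.66. The second Slc9a3 probe fell in the same 3 arrays, at 5.33 in GF Card9-/- replicate 2, and at 3.15 and 4.25 in GF WT replicates 1 and 5, where it was not well above background, against 6.92 to 7.88 elsewhere. Its genotype-centred correlation with the brighter probe was 0.75. The brighter probe lies at chr13:74306830-74306889 and the other spans chr13:74300566-74301172 (mm9, + strand), so that separate parts of the gene gave the pattern.

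Guca2a and Krt20 had their low values in the same arrays. Guca2a was at 17.16, 18.47, 18.03 and 18.22 in arrays labelled GF Card9-/- and at 16.50, 18.22, 15.39 and 18.26 in arrays labelled GF WT, in the replicate order just given. Krt20 was at 15.25, 16.58, 15.76 and 16.13, and at 15.32, 16.03, 14.23 and 15.96. For each gene the 3 lowest arrays were GF WT replicates 5 and 1 and GF Card9-/- replicate 2, so that both labels were among the low arrays. The differences were 0.88 for Guca2a (SE 0.685, 95% interval -0.72 to 2.48, adjusted p = 0.913) and 0.54 for Krt20 (SE 0.460, 95% interval -0.53 to 1.62, adjusted p = 0.913). Without GF WT replicate 5 they were 0.31 and 0.16.

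Scnn1b ran the other way, and this design's probe was well above background on all 8 arrays. It was at 7.91, 7.24, 6.69 and 7.13 in arrays labelled GF Card9-/- and at 8.01, 7.17, 8.44 and 6.70 in arrays labelled GF WT. The 3 highest arrays were those lowest in Slc9a3. The difference between labels was -0.34 (SE 0.430, 95% interval -1.34 to 0.67, adjusted p = 0.923), and ran from -0.63 without GF WT replicate 6 to -0.05 without GF WT replicate 5 as single arrays were left out.

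Of the other carriers, Slc26a3 was nearly level over all 8 arrays, at 14.28, 14.20, 13.65 and 14.00 against 14.04, 13.93, 13.80 and 13.94, with a difference of 0.11 (SE 0.158, 95% interval -0.26 to 0.48, adjusted p = 0.932), and from 0.03 to 0.24 as single arrays were left out. Its 2 probes on this design did not move together (centred r = -0.03), so its small changes are not resolved. Slc5a8 was at 11.97, 11.13, 11.21 and 11.12 against 11.70, 11.13, 11.81 and 11.58, highest in the arrays that were lowest in Slc9a3, with a difference of -0.20 (SE 0.244, 95% interval -0.77 to 0.37, adjusted p = 0.919). It was -0.41 without GF Card9-/- replicate 2, the array at 11.97, and 0.03 once both arrays with pancreas markers were left out. Slc16a1 was read with a probe near background at day 7, above it on 3 of 4 arrays labelled GF Card9-/- and 1 of 4 labelled GF WT. It was at 4.91, 5.10, 4.69 and 4.32 against 2.47, 4.45, 2.44 and 4.79, and its difference of 1.22 (SE 0.591, 95% interval -0.17 to 2.6, adjusted p = 0.913) rests on those dim values: it was 0.15 once values under the lowest signal above background were raised to that signal, and 0.85 without GF WT replicate 5.

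Aqp8 and Car4 shared their extremes at day 7. Aqp8 was at 17.23, 16.86, 17.04 and 16.89 in arrays labelled GF Card9-/- and at 17.18, 16.73, 16.05 and 16.96 in arrays labelled GF WT, a 2.28-fold range, with a difference of 0.28 (SE 0.249, 95% interval -0.31 to 0.86, adjusted p = 0.913). Car4 was at 15.70, 15.30, 15.17 and 15.29 against 15.58, 15.11, 14.61 and 15.06, with a difference of 0.28 (SE 0.222, 95% interval -0.24 to 0.80, adjusted p = 0.913). GF WT replicate 5 was the lowest and GF Card9-/- replicate 2 the highest array for both genes. Without GF WT replicate 5 the differences were 0.05 for Aqp8 and 0.12 for Car4, and without GF WT replicate 1 they were 0.43 and 0.44. A dimmer probe of each gene correlated with the brighter one at only 0.32 (Aqp8) and 0.45 (Car4), and gave differences of -0.07, the opposite direction, for Aqp8 and 0.10 for Car4. Car1 was at 14.05, 15.68, 13.92 and 15.30 against 14.21, 14.17, 14.66 and 14.45. Its 2 highest arrays, GF Card9-/- replicates 2.1 and 6, were also those with pancreas markers at 11.62 and 15.50, and its difference was 0.37 (SE 0.420, 95% interval -0.62 to 1.35, adjusted p = 0.918). It was 0.05 without GF Card9-/- replicate 2.1, 0.18 without GF Card9-/- replicate 6, 0.64 without GF Card9-/- replicate 4, and turned to -0.39 without both of the arrays with pancreas markers, a setting added after the values had been seen. The part of that tissue in the Car1 signal was not tested.

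**Figure D2:**
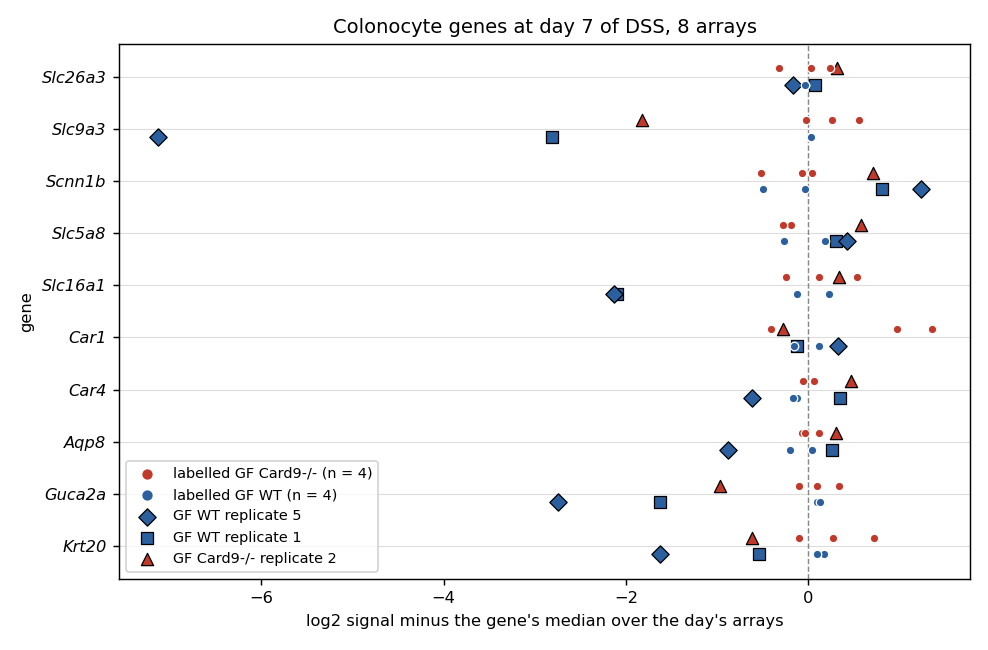
Normalized log2 signal of each of the 10 members minus the gene's median over the 8 arrays of day 7 (horizontal axis), with 1 point per array, arrays labelled GF Card9-/- in red and GF WT in blue, and GF WT replicate 5 as a diamond, GF WT replicate 1 as a square and GF Card9-/- replicate 2 as a triangle. Slc9a3 falls to 7.11 in GF WT replicate 5 while 5 arrays of both labels stay between 14.22 and 14.80, and every member's groups overlap.

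Set beside each other, the label differences of the 2 days could be compared through 8 members with a probe common to both designs (Scnn1b and Slc16a1 had none). In a limma fit over all 21 arrays none of the 8 had a difference that changed with the day (lowest adjusted p 0.812, that of Slc9a3), and over the 23633 common probes tested 0% were called, while 1688 had an unadjusted p under 0.05. The day 7 difference minus the day 0 difference was 1.82 for Slc9a3 (SE 1.31), 0.70 for Guca2a (SE 0.593), 0.67 for Car1 (SE 0.738), 0.46 for Krt20 (SE 0.464) and -0.55 for Aqp8 (SE 1.39). For Slc26a3, Car4 and Slc5a8 it lay between -0.13 and 0.06. The probe common to both designs was the dimmer of the 2 day 7 probes for Slc26a3 and Car4, with day 7 differences of -0.01 and 0.10 in place of the 0.11 and 0.28 given above. The spread between arrays limits what these comparisons can show: the narrowest interval was that of Slc16a1 at day 0 (0.03 to 0.39), and the widest those of Slc9a3 at day 7 and Aqp8 at day 0. Within the day 0 slides, each of which held both labels, the median member difference was 0.06, 0.01 and 0.03 on slides 1 to 3 and 0.555 on slide 4, the slide that held GF WT replicate 6. Of the day 7 slides 2 held both labels, with 1 array of each, and gave medians of 0.19 and 0.255. On the first of them Slc9a3 was lower in the array labelled GF Card9-/- (-1.86), and on the other it was higher (0.53).

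**Figure D3:**
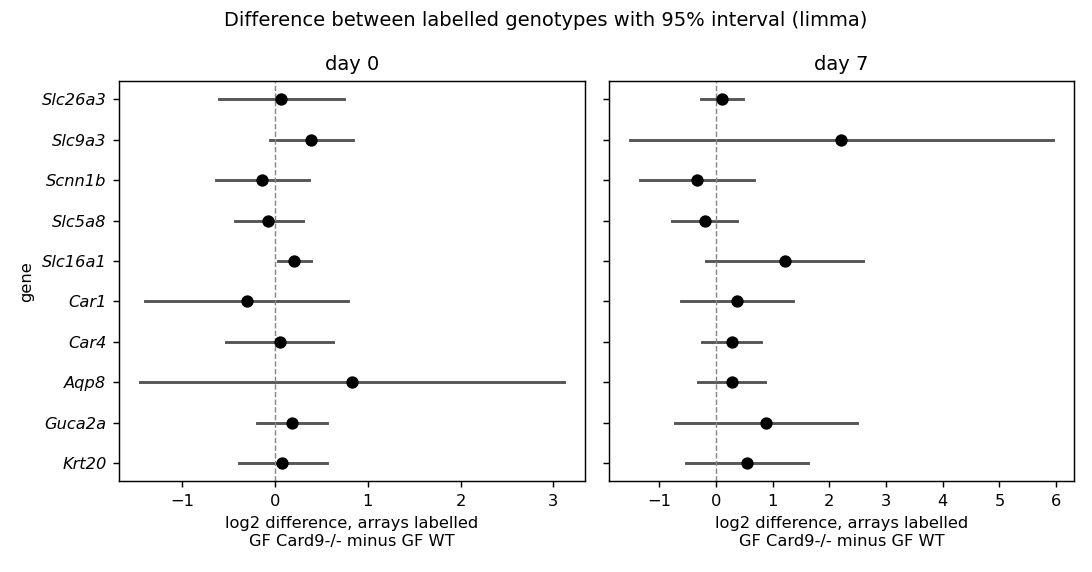
Difference in normalized log2 signal, labelled GF Card9-/- minus labelled GF WT, of each member at day 0 and day 7, as a point with its 95% interval from limma (line), 1 panel per day and each with its own scale. All intervals include 0 except that of Slc16a1 at day 0 (0.03 to 0.39, not past correction), and the widest are those of Aqp8 at day 0 (-1.45 to 3.11) and Slc9a3 at day 7 (-1.52 to 5.95).

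The next question was which members moved together from array to array, beyond the labels. Values were centred on the mean of each label and all 45 pairs of members were correlated over the 13 day 0 arrays. After Benjamini-Hochberg adjustment 13 pairs passed by Pearson r (7 positive, 6 negative) and 7 by Spearman rho, 6 of them by both, and all 13 kept their sign without the 2 arrays farthest from the median. The members fell into opposed sets. Guca2a, Krt20 and Car1 rose and fell together: r was 0.96 for Guca2a with Krt20 (permutation p = 4e-05, adjusted 0.0009, rho = 0.93 with p = 0.00022, adjusted 0.0099, and r = 0.90 without the 2 farthest arrays), and 0.85 for Car1 with Krt20 (permutation p = 9e-05, adjusted 0.00135, rho = 0.82 with p = 0.00053, adjusted 0.010, and r = 0.85 without the 2 farthest). Car1 with Guca2a had r = 0.80 (permutation p = 0.00543, adjusted 0.0244, rho = 0.79 with p = 0.00118, adjusted 0.0106, and r = 0.70 without the 2 farthest).

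The water channel, the apical carbonic anhydrase and the fatty acid carrier made up the other set. Aqp8 with Car4 had r = 0.92 (permutation p = 0.00055, adjusted 0.00619, rho = 0.80 with p = 0.00089, adjusted 0.010, and r = 0.76 without the 2 farthest arrays), but in the 6 arrays of scan session 1 alone r was -0.213. Slc5a8 with Aqp8 had r = 0.70, with the smallest p that the 100000 permutations can give (1e-05, adjusted 0.00045, rho = 0.70 with p = 0.00073, adjusted 0.010), and 0.96 without the 2 farthest. Slc5a8 with Car4 had r = 0.79 (permutation p = 0.00127, adjusted 0.0103, rho = 0.63 with p = 0.0297, adjusted 0.103), and 0.67 without them. The sets were drawn from these same correlations, so the signs between them are a description and no separate result. Between the sets all 9 relations were negative. By Pearson r 3 did not pass (Aqp8 with Guca2a at an adjusted permutation p of 0.176, Car4 with Guca2a at 0.179 and Car4 with Krt20 at 0.0894). Aqp8 with Guca2a did pass by Spearman (rho = -0.67, permutation p = 0.00148, adjusted 0.0111). The other 6 passed by Pearson r. Among those that passed were Slc5a8 with Guca2a at -0.82 (permutation p = 0.00138, adjusted 0.0103, rho = -0.81 with p = 0.00295, adjusted 0.019, and -0.75 without the 2 farthest) and Car1 with Aqp8 at -0.93 (permutation p = 0.00368, adjusted 0.0192, rho = -0.77 with p = 0.012, adjusted 0.060, and -0.77 without them). The 2 arrays left out for Car1 with Aqp8 were GF WT replicates 6 and 5, and GF WT replicate 5 lay against the relation, with Aqp8 at 16.56 beside the second-highest Car1 (15.65). Without GF WT replicate 6 alone r was -0.61 and did not pass (permutation test, adjusted p = 0.168). GF Card9-/- replicates 1 and 4 had the next lowest Aqp8 (15.47 and 15.54) and Car4 (14.61 and 14.71) with high Car1 (15.54 and 15.63), and GF WT replicate 2 had the highest Aqp8 (17.12) with the lowest Car1 (14.45), Guca2a (17.69) and Krt20 (16.32). GF WT replicate 5 broke that order, as it was high in Krt20 (17.47) and Guca2a (18.74) and also in Car4 (15.51).

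Slc26a3 and Slc9a3, the exchangers that together take up sodium chloride, formed a pair of their own at day 0, with r = 0.69 (permutation p = 0.00227, adjusted 0.0146, rho = 0.60 with p = 0.014, adjusted 0.063, and r = 0.47 without the 2 farthest arrays). Slc26a3 with Aqp8, at r = 0.78 (permutation p = 0.121, adjusted 0.258, rho = 0.27 with p = 0.268, adjusted 0.545), did not pass and rested on GF WT replicate 6, as it was -0.28 without the 2 farthest arrays. Without GF WT replicate 6 alone 8 of the 45 pairs passed, among 8 to 16 over all single arrays left out, and without the whole slide that held it 4 passed. Slc16a1 and Scnn1b took part in no pair that passed.

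At day 7 none of the 45 pairs passed with 8 arrays, where the exact test over 576 rearrangements within labels cannot go below p = 0.00174. By unadjusted p under 0.05 there were 11 pairs. The closest were Slc9a3 with Guca2a (r = 0.98, exact permutation p = 0.00174, adjusted 0.0521, rho = 1 with exact p = 0.00174, adjusted 0.0781, and r = 0.99 without the 2 farthest arrays), Slc9a3 with Krt20 (r = 0.94, exact permutation p = 0.00347, adjusted 0.0521, rho = 0.88 with exact p = 0.00694, adjusted 0.104, and r = 0.91 without them) and Guca2a with Krt20 (r = 0.95, exact permutation p = 0.00347, adjusted 0.0521, rho = 0.88 with exact p = 0.00694, adjusted 0.104, and r = 0.95 without them). Scnn1b opposed Guca2a at r = -0.90 (exact permutation p = 0.0295, adjusted 0.156, rho = -0.83 with exact p = 0.059, adjusted 0.289, and -0.66 without the 2 farthest arrays). Aqp8 with Car4 had r = 0.88 (exact permutation p = 0.0312, adjusted 0.156, rho = 0.74 with exact p = 0.0642, adjusted 0.289, and r = 0.62 without them).

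**Figure D4:**
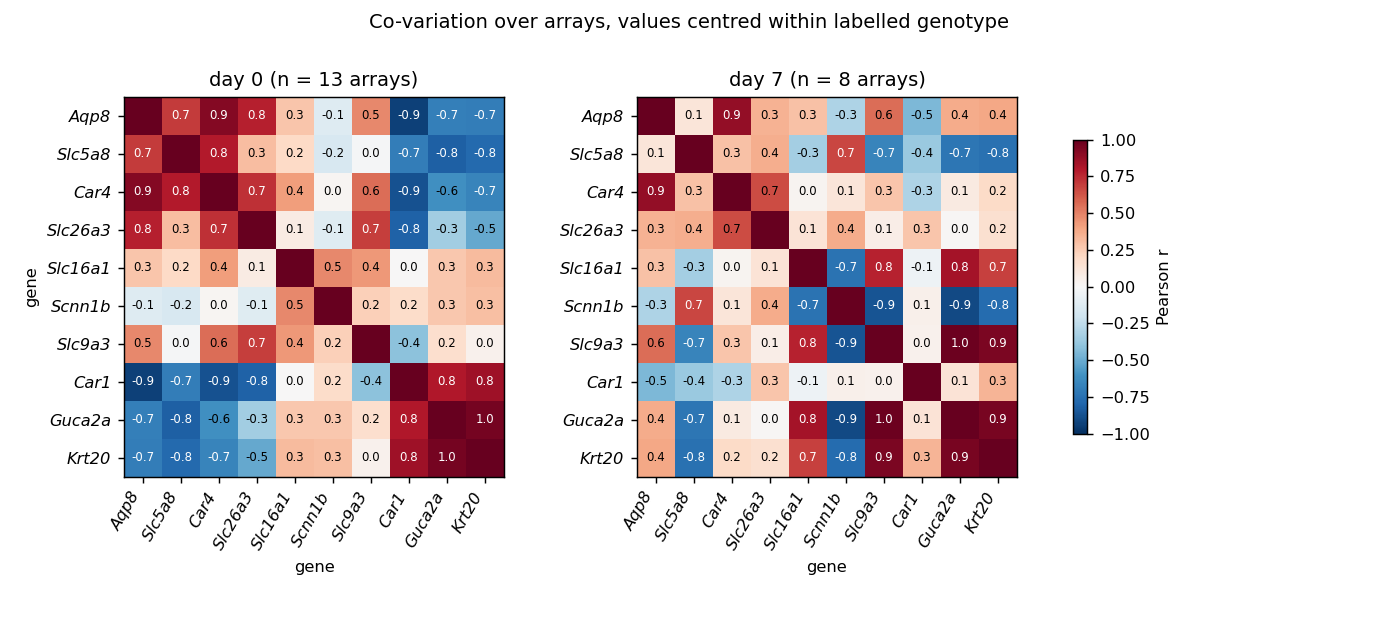
Pearson r between each pair of the 10 members over the arrays of a day, after centring on the label means, for the 13 arrays of day 0 and the 8 arrays of day 7, with colour running from -1 to 1. At day 0 Guca2a, Krt20 and Car1 stand against Aqp8, Car4 and Slc5a8, and at day 7 Slc9a3, Guca2a and Krt20 correlate at 0.94 to 0.98.

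The members were then set beside lists of genes that mark position along the gut and differentiation. This comparison was added after the values had been seen, and covers 250 relations a day, each member with the mean of each of 25 lists. At day 0, 47 of the 250 passed adjustment by Pearson r, and at day 7 none of 250. Of the 5 distal gut genes tested, only 2 were well above background on every array of a day, at either day. Hoxd10 and Hoxd12 were low on most arrays. Their medians were 3.09 and 2.42 at day 0 over the arrays other than GF WT replicate 6. At day 7 they were 3.03 and 2.73 over the arrays other than GF WT replicate 5. The distal gut list (5 homeobox genes measured, Hoxb13 and Hoxd13 among them) was correlated at day 0 with Krt20 at r = -0.89 (permutation p = 0.00045, adjusted 0.00625, rho = -0.84 with p = 0.00245, adjusted 0.0231, and -0.84 without the 2 farthest arrays), and with Guca2a at -0.86 (permutation p = 0.003, adjusted 0.0268, rho = -0.83 with p = 0.0025, adjusted 0.0231, and -0.82 without them). With Aqp8 it was positive, r = 0.84 (permutation p = 0.00761, adjusted 0.0442, rho = 0.61 with p = 0.0315, adjusted 0.141, and 0.47 without them). The small intestine list rose with Krt20 (r = 0.78, permutation p adjusted to 0.0289) and Car1 (0.90, 0.049). With Aqp8 its r of -0.92 did not pass (permutation p adjusted to 0.0503), and it was -0.54 without the 2 farthest arrays. The list of colonocyte differentiation genes (22 measured, none a member) rose with Krt20 at r = 0.97 (permutation p = 1e-05, the smallest possible, adjusted 0.00167, rho = 0.96 with p = 1e-05, adjusted 0.00125, and 0.95 without the 2 farthest). Other members ran against it: Aqp8 had r = -0.75 with that list (permutation p = 0.00526, adjusted 0.0355, rho = -0.65 with p = 0.0102, adjusted 0.0686, and -0.52 without the 2 farthest), and Slc5a8 had -0.70, which did not pass (permutation p = 0.0133, adjusted 0.063, rho = -0.62 with p = 0.0448, adjusted 0.178, and -0.55 without them).

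Lists of other cell types were correlated with members at day 0 as well. The B and plasma cell list (6 genes measured), lowest in GF WT replicate 6 at 6.18 and up to 10.51 elsewhere, had r = -0.85 with Krt20 (permutation p = 0.00028, adjusted 0.00517, rho = -0.92 with p = 9e-05, adjusted 0.00375, and -0.77 without the 2 farthest arrays) and -0.81 with Guca2a (permutation p = 0.00176, adjusted 0.0191, rho = -0.88 with p = 0.00067, adjusted 0.0105, and -0.73 without them). With Car1 r was -0.76 (permutation p = 0.00029, adjusted 0.00517, rho = -0.80 with p = 0.00063, adjusted 0.0105, and -0.66 without them). With Slc5a8 it was 0.73 (permutation p = 0.00929, adjusted 0.0494, rho = 0.71 with p = 0.0134, adjusted 0.078, and 0.54 without them), and with Aqp8 0.63 (permutation p = 0.00394, adjusted 0.0298, rho = 0.59 with p = 0.00897, adjusted 0.0623, and again 0.59 without them). Other lists of cell types, and the cell cycle list, passed with 1 or 2 members each. They were cell cycle with Slc5a8 (r = -0.85, permutation p adjusted to 0.00517) and with Aqp8 (-0.82, 0.0124), enteroendocrine with Slc5a8 (0.77, 0.0312), neutrophil with Scnn1b (-0.79, 0.0289), macrophage with Slc16a1 (-0.77, 0.0355), mesothelium with Slc26a3 (-0.73, 0.0428) and T cell with Guca2a (-0.54, 0.0442). All 7 kept their sign without the 2 farthest arrays. The relation of the neutrophil list with Scnn1b carries little information, as much of its signal lay near background. The Scnn1b probe was well above background on 1 of 7 arrays labelled GF Card9-/- and on 2 of 6 labelled GF WT. Of the 6 neutrophil genes tested, 2 were well above background on every array. The epithelial injury response list passed with Car1 (r = 0.96, permutation p adjusted to 0.00517), Krt20 (0.84, 0.00517) and Guca2a (0.80, 0.0428). The part of these cells, and of the injury response, in the relations among members was not tested.

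GF WT replicate 6 at day 0 was at the end of both list means, though not every gene of the lists followed. Its distal gut list had a mean of 5.67, against 7.16 to 9.12 on the other 12 arrays, and its small intestine list (9 genes) a mean of 10.11, against 6.97 to 8.41. Slc10a2, the bile acid carrier of the ileum, was at 14.90 in it and at 9.23 to 11.23 elsewhere, and Fabp6, which binds bile acids in ileal cells, was at 12.55 and at 9.02 to 10.39 elsewhere. Lct, the lactase of the small intestine, was near the lowest of the 13 arrays in it (2.56, against 2.55 to 5.84), Hoxd10 was near the highest (4.98, against 2.26 to 5.02), and Apob, Fabp1 and Hoxd12 also lay within the range of the other arrays. Pan-epithelial genes (12) were within the range of the others, at 15.29 against 14.96 to 15.38. Atp12a, the colonic proton/potassium pump, chosen for mention after its values were seen, was at 4.63 in this array and between 10.19 and 13.63 on the others. The part of tissue position in the Aqp8 and Car1 values of this array was not tested.

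At day 7 the arrays low in Slc9a3, Guca2a and Krt20 had high means of the distal gut list and low means of the small intestine list, though not every gene of a list followed its mean. The distal gut list was at 10.24 in GF WT replicate 5, 8.43 in GF Card9-/- replicate 2 and 8.19 in GF WT replicate 1, against 6.81 to 7.82 on the other 5 arrays. Hoxd13, at 6.77 in GF WT replicate 1 and 7.40 in GF Card9-/- replicate 2, lay in both within the range of those 5 (3.95 to 7.48), and Hoxa13 was lowest in GF WT replicate 5. The small intestine list was at 5.21, 6.95 and 6.06 in the same order, against 7.13 to 8.30. Fabp6 of that list went the other way, at 10.36 in GF WT replicate 5 and 10.29 in GF WT replicate 1, the 2 highest of the 8 arrays. Slc9a3 had r = -0.96 with the distal gut list (exact permutation p = 0.00694, adjusted 0.0723, rho = -0.83 with exact p = 0.0156, adjusted 0.145, and -0.82 without the 2 farthest arrays), and Guca2a had an r that rounds to 1 with the colonocyte differentiation list (exact permutation p = 0.00174, adjusted 0.0723, rho = 1 with exact p = 0.00174, adjusted 0.109, and again 1 without them). In that list Isx, a homeobox factor of the intestinal epithelium, showed the pattern most plainly, at 6.75, 11.28 and 9.55 in those 3 arrays and at 12.32 to 12.58 in the other 5. Pan-epithelial genes spanned only 14.30 to 14.64 over the 8 arrays. The epithelial injury response list was low in the same 3 arrays. It was at 7.56, 7.69 and 7.87 in the order of the lists above, against 8.17 to 8.97 in the other 5. The adipocyte and goblet cell lists were also low in those 3 arrays, though not every list of other cells was. The adipocyte list was at 8.42, 9.63 and 9 in the order of the lists above, against 10.07 to 11.75 in the other 5, and had r = 0.85 with Slc9a3 (exact permutation p = 0.0191, adjusted 0.136, rho = 0.95 with exact p = 0.00694, adjusted 0.109, and r = 0.86 without the 2 farthest arrays). The goblet cell list was at 15.91, 16.38 and 16.30, against 16.56 to 16.73, and had r = 0.98 with Slc9a3 (exact permutation p = 0.0122, adjusted 0.109, rho = 0.93 with exact p = 0.0174, adjusted 0.15, and r = 0.91 without them). The B and plasma cell list ran mostly the other way, at 9.05, 10.11 and 9.16 in the same order, against 6.07 to 9.13 in the other 5. The enteroendocrine list was at 11.92, 12.97 and 12.97, against 12.66 to 13.26. The smooth muscle list was at 14.88, 13.34 and 12.53, against 12.3 to 14.37. The part of position along the colon, of these cells and of the injury response in the Slc9a3, Guca2a and Krt20 values was not tested.

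**Figure D5:**
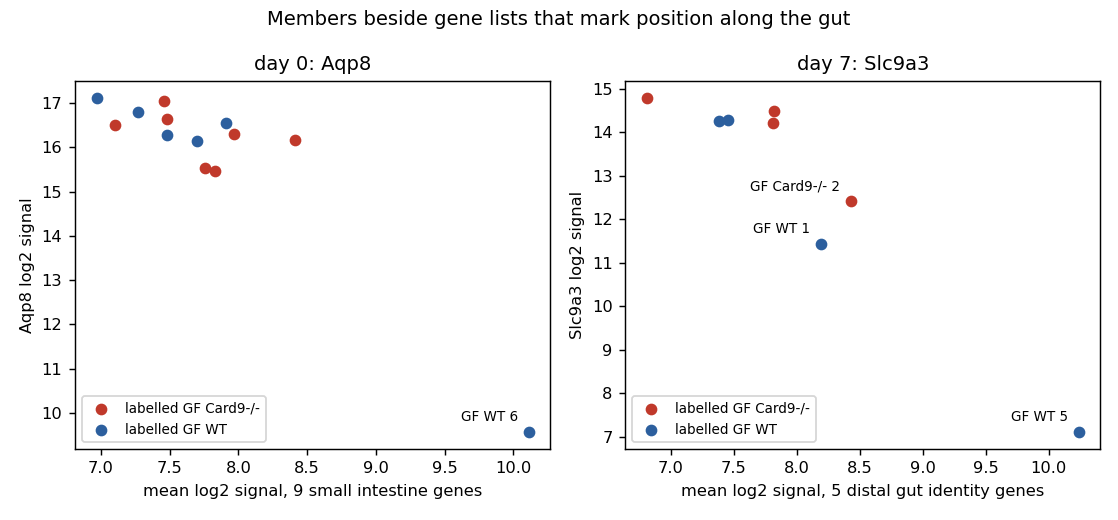
Left, normalized log2 signal of Aqp8 (vertical) against the mean of 9 small intestine genes (horizontal) on the 13 arrays of day 0, and right, Slc9a3 against the mean of 5 distal gut genes on the 8 arrays of day 7, with 1 point per array in red (labelled GF Card9-/-) or blue (labelled GF WT). GF WT replicate 6 at day 0 (Aqp8 9.56, small intestine list 10.11) and GF WT replicate 5 at day 7 (Slc9a3 7.11, distal gut list 10.24) lie far from the other arrays. Neither relation passed adjustment by Pearson r.

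Other genes of the same pathways gave no call either. The 8 lists of related genes held 75 genes, all tested at day 0 and 72 at day 7, and none passed at either day, with 31 of 75 and 53 of 72 higher in the arrays labelled GF Card9-/-. By list, the genes higher at day 0 and at day 7 were 3 of 8 and 4 of 8 for anion and bicarbonate transport, 4 of 12 and 6 of 11 for sodium and proton transport, 2 of 10 and 9 of 10 for monocarboxylate and nutrient transport, 2 of 8 and 6 of 8 for the other carbonic anhydrases, and 4 of 7 and 6 of 6 for the other aquaporins. They were 2 of 5 and 0 of 5 for potassium channels, 1 of 3 and 3 of 3 for the guanylin pathway, and 13 of 22 and 19 of 21 for colonocyte differentiation. Of the genes that bounded a list at day 0, the lowest adjusted p-values were those of Kcnn4, a calcium-activated potassium channel of epithelial cells (difference 0.32, SE 0.0857, adjusted p = 0.387), and Muc3, a membrane mucin of the brush border (-0.34, SE 0.0909, adjusted p = 0.391). At day 7 the differences largest against their error were those of Slc16a3, the monocarboxylate carrier MCT4 (0.88, SE 0.302, adjusted p = 0.913), Hnf4g, a nuclear receptor of the intestinal epithelium (-0.57, SE 0.213, adjusted p = 0.913), and Kcnn4 (-0.60, SE 0.232, adjusted p = 0.913). Gucy2c, the receptor of guanylin, differed by 0.04 (SE 0.128) at day 0 and by 0.14 (SE 0.311) at day 7, and Guca2b, which codes for uroguanylin, by -0.09 (SE 0.110) and 0.38 (SE 0.395). Of the 17 lists of cell type and context markers (140 genes) no gene passed at either day.

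The genes whose pattern was most like the mean of the members were found among the 15488 genes well above background on every day 0 array, as a description with no test. By genotype-centred Pearson r over 13 arrays they were Slc35f2 (0.973), Vill (0.957), Chp2 (0.946), 9130204K15Rik (0.945) and Vldlr (0.944), and the most opposed were Fbxw17 (-0.932), Anpep (-0.927), Fam3c (-0.916), Idh2 (-0.913) and Exoc3l4 (-0.905). Chp2 codes for a cofactor of sodium/proton exchangers, Vill for a relative of villin, and Anpep for aminopeptidase N of the brush border, which spanned 3.77 on the log2 scale. Over the 8 arrays of day 7 the closest of 12998 genes were Ntrk2 (0.987), Olfr1368 (0.982), Gm1070 (0.981), Btnl6 (0.978) and Tex44 (0.978), and among the most opposed were Tcf21 (-0.987), C1qtnf5 (-0.984), Prpf40b (-0.984) and Fundc2 (-0.981). Btnl6 is a butyrophilin-like gene of the intestinal epithelium and Tcf21 a transcription factor of mesenchymal cells. The members' mean was not scaled, so the member of widest range weighed most. This was Aqp8 at day 0 (a range of 7.56 on the log2 scale) and Slc9a3 at day 7 (7.69). Without the slide that held GF WT replicate 6, the day 0 values ran from 0.849 to 0.948 for the closest genes. For the most opposed they ran from -0.875 to -0.732. No gene was named at both days.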

How the data were processed

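Total colon RNA was labelled with Cy3 and hybridized to 1-colour Agilent arrays, with 1 design at day 0 and another at day 7. The deposited intensity values are Agilent Feature Extraction (version 10.7.3.1, submitters' processing notes) processed signals, background-subtracted but not normalized between arrays. The deposited p-values test each spot's signal against background. The authors also deposited a table of quantile-normalized log2 values, used here only as an alternative. The signals were read as deposited, outlier spots were left out, each day's arrays were quantile normalized on the log2 scale over all spots, control probes were then removed, and spots of a probe were averaged. Probes entered the test where 60% or more of a label's arrays had a detection p-value under 0.05, and were fitted with limma 3.58.1 (R 4.3.3) and Benjamini-Hochberg adjustment at 0.05, after the study's methods. A probe was counted as well above background by the flag in the deposited files. The levels are fluorescence, so the number of arrays limits the precision, and probes were not set against each other. Groups came from the sample labels.

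The members and gene lists were chosen with earlier results of these data known. Named were all 10 members, Card9, the largest rise and fall in each related list, and the 5 genes most and least like the members' mean. Another gene that this rule gives at day 7 is not reported here. Any other gene named was chosen after its values were seen. Correlations were centred on labels and permuted within them (100000 resamples at day 0, exact at day 7, two-sided, random seed 1). Promoters came from RefSeq (GRCm38.p6), and probe positions (mm9) from the files. Alternatives covered background correction, scaling, detection filters, probe averaging, slide, scan session, the replicate number, array weights, single arrays and a pan-epithelial correction. The tests were checked on simulated data.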

Additional observations from a re-analysis of the deposited data

Results flagged for a closer look

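The highest and lowest arrays of each group were compared with the whole range of the group by Dixon's criterion at 95%, for each member, their mean and Card9. An array lay apart in 7 of the 48 sets of values, and about 1 in 20 would do so by chance. The array labelled GF WT replicate 6 at day 0 accounted for 4 of these: it was lowest in its group for Slc26a3 (13.75), Car4 (13.87) and Aqp8 (9.56), and highest for Car1 (17.94). At day 7 the array labelled GF Card9-/- replicate 2 was the highest of its group for Slc5a8 (11.97, with the next at 11.21). For Card9 at day 7, the array labelled GF WT replicate 1 stood at 7.85 with the next of its group at 2.41, and GF Card9-/- replicate 2.1 stood at 8.57 with the next at 8.02.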

How the results depend on the processing

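Of 878 values recomputed under an alternative, 807 counted as kept. Single differences and correlations (631 of 687 kept) had to hold their direction and their side of the threshold. Among them, a mean over all probes of a gene needed only to stay within the SD between arrays. Counts and median differences (176 of 191 kept) were judged by size alone, whatever the direction. A count had to stay within a fixed factor, and a median within the SD of the arrays' member means. No member passed correction at either day under any alternative run. Over all probes at day 0 the 12 calls became 27 with normexp background correction, 22 with the deposited normalized table, 22 with a well above background filter, 26 with array weights, 7 with the replicate block, and 1 and 3 in scan sessions 1 and 2 alone. Over all probes at day 7 the calls ranged from 0 to 1 when an array was left out (1 without GF WT replicate 1, that of Card9). The median member difference at day 0 (0.077) was 0.555 within slide 4.

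The direction of some member differences, none of them called, turned. At day 0 these were Scnn1b with normexp (0.001), Car1, Car4 and Aqp8 in session 1 alone (0.016, -0.076 and -0.326), Slc5a8 and Krt20 in session 2 alone (0.026 and -0.061), Slc26a3, Car1, Car4 and Aqp8 with array weights (-0.168, 0.256, -0.214 and -0.142), and Slc26a3 and Car4 after subtracting the pan-epithelial mean (-0.009 and -0.033). Without the slide that held GF WT replicate 6 the values were -0.086 for Slc26a3, 0.321 for Car1, -0.319 for Car4 and -0.582 for Aqp8. Over that setting and every single array left out, the day 0 differences ranged from -0.226 to 0.162 for Slc26a3 (turned when GF WT replicate 6 or either of GF Card9-/- replicates 2 and 3 was left out), from -0.287 to 0.021 for Slc5a8 (GF WT replicate 2, GF Card9-/- replicate 4), from -0.487 to 0.321 for Car1 (GF WT replicate 6), from -0.319 to 0.137 for Car4 (GF WT replicate 6, GF Card9-/- replicate 5), from -0.582 to 1.173 for Aqp8 (GF WT replicate 6) and from -0.067 to 0.308 for Krt20 (GF WT replicate 2). At day 7 Scnn1b turned with array weights (0.091), and Slc5a8 (0.033) and Car1 (-0.389) turned without both arrays with pancreas markers, a setting chosen after seeing the data. The cause of these turns was not tested.

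The samples share replicate numbers, but not every same-numbered pair deviated together (correlations from -0.02 to 0.37 over 6 numbers at day 0, 3 of them over 0.1, and 0.03 and 0.11 over 2 at day 7), so the numbers are not read as pairs. With the replicate block at day 7 the differences were -0.106 for Slc26a3, -0.115 for Slc16a1, -0.113 for Guca2a and -0.052 for Krt20, with a member median of -0.039 and 4 of 10 higher, and it changed no other direction or call of a member. The day 7 arrays labelled GF Card9-/- replicates 2 and 2.1 differed from each other about as much as other pairs did (SD of the log2 difference 0.852, against a median of 0.907) and were counted as 2 samples.

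The number of member pairs past the threshold at day 0 (13) was 7 by Spearman, ranged from 4 (without the slide that held GF WT replicate 6) to 16 as arrays were left out, (8 after dropping GF WT replicate 6, and 8 after dropping GF Card9-/- replicate 4), and was 0 and 0 in scan sessions 1 and 2 alone, which hold 6 and 7 arrays and allow few permutations. In session 1 alone r was -0.213 for Aqp8 with Car4 and -0.327 for Slc26a3 with Aqp8. Leaving out single arrays, r ranged from -0.242 to 0.853 for Slc26a3 with Aqp8 at day 0 (turned without GF WT replicate 6) and from -0.384 to 0.297 for Slc9a3 with Slc26a3 at day 7 (turned without GF WT replicate 5). Signal near background limits Scnn1b at day 0 and Slc16a1 at day 7.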
